A study of Mus musculus with 8 samples.

Results

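The genes described here encode the organic ion and drug transporters of the kidney. They were taken by symbol as every row of the deposited gene table named Slc22a, Slco, Slc47a, Abcb, Abcc or Abcg followed by a digit, which gave 69 of 55401 genes. A symbol that does not follow this form, such as Cftr, is not among them. Kidney RNA of 8 diabetic mice was sequenced, 1 library per mouse, to compare 4 mice given recombinant FGF4 (rFGF4, a fibroblast growth factor) with 4 control mice. The labels call the controls the db/db model, a leptin receptor mutant with obesity and type 2 diabetes, and give no age, dose or duration. The study's text describes the sequenced mice as made diabetic with streptozotocin (STZ), a toxin of insulin-producing cells, given rFGF4 or buffer by injection, and nothing in the files decides between the 2 models. Mice are called rFGF4 mice 1, 2, 3 and 5 and db/db mice 2, 3, 4 and 5 after their labels, and both groups share male sex and diabetes, so no non-diabetic kidney was available for comparison here.

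Secretion of drugs and waste by the kidney runs through the proximal tubule cell. Organic anion and cation transporters of the SLC22 family take their substrates from blood across the basolateral membrane, and pumps of the ABCB, ABCC and ABCG families and the proton exchangers of the SLC47 family pass them on into urine. Other members of the same families reclaim urate and carnitine from urine, move prostaglandins, thyroid hormones and bile acids, or serve mitochondria and lysosomes.

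Expression was given as FPKM, which is fragments divided by exon length and by the total mapped in the library. The unit carries no read counts, so the depth behind each value is unknown. Libraries differed in composition before any transporter was considered. Rank correlations between libraries ran from 0.836 to 0.96. The markers of the proximal tubule, the cell that carries most of these transporters, averaged 5.59 on the log2(FPKM + 1) scale in rFGF4 mouse 1 and 6.83 to 7.73 in the other 7 mice, over 12 genes that were all detected. Macrophage markers averaged 5.78 in rFGF4 mouse 1 and 5.81 in db/db mouse 5, against 2.18 to 4.62 in the others. Lymphoid markers averaged 5.58 in db/db mouse 5 and at most 3.29 elsewhere. Red blood cell markers were lower in the treated mice for all 5 genes (median log2 fold change -1.97). Their mean level on the log2(FPKM + 1) scale was 3.97, 7.38, 5.64 and 8.10 in the rFGF4 mice and 8.54, 8.85, 8.10 and 6.85 in the db/db mice (exact permutation p = 0.171). Mitochondrial genes took 19% to 36% of the summed FPKM in the rFGF4 mice, lowest in mouse 1, and 24.4% to 38.4% in the db/db mice. Fat markers were near 0 in all 8 libraries. In whole kidney RNA, fewer cells of a type and less RNA per cell cannot be told apart. The part of these differences in the results was not tested. Calls are also given without rFGF4 mouse 1 and db/db mouse 5.

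Of the 69 transporter genes, 44 reached the limit for testing, which was 0.5 FPKM in no fewer than 4 libraries. Few of them differed between the groups (the plot of fold changes by family). By the study's threshold, a fold change of 1.5 or more together with an unadjusted p under 0.05, Abcb1b, a P-glycoprotein drug pump, was the 1 gene that rose with rFGF4. Slc22a7 and Slc22a19, both organic anion transporters, were the 2 that fell. Of all 15150 genes tested, 165 (1.09%) rose and 66 (0.436%) fell by the same threshold. Scaling the libraries to a common median ratio turned that split into 93 and 84 genes, and scaling to a common sum without mitochondrial genes into 279 and 41. An unadjusted p under 0.05 was found for 4 transporters, with Abcc4 as the fourth, and for 700 of all genes (4.62%). Groups that did not overlap were found for 1 transporter, Abcb1b, and for 504 of all genes (3.33%). No transporter and no other gene had an adjusted p under 0.05 with limma and Benjamini-Hochberg adjustment over all genes, the smallest being 0.918. The limma p-values set the difference between groups against the spread between these mice, drawn toward that of genes of similar level. The median log2 fold change was -0.084 over the 44 transporters, 19 higher and 25 lower, and 0.086 over all genes, 10164 higher and 4986 lower. This split depended on the scaling and on rFGF4 mouse 1. With median-ratio scaling 13 transporters and 7196 genes were higher and 31 and 7954 lower, and with nuclear-sum scaling 23 and 11780 were higher and 21 and 3370 lower. Without rFGF4 mouse 1 there were 22 transporters and 7915 genes higher and 22 and 7235 lower.

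**Figure D1:**
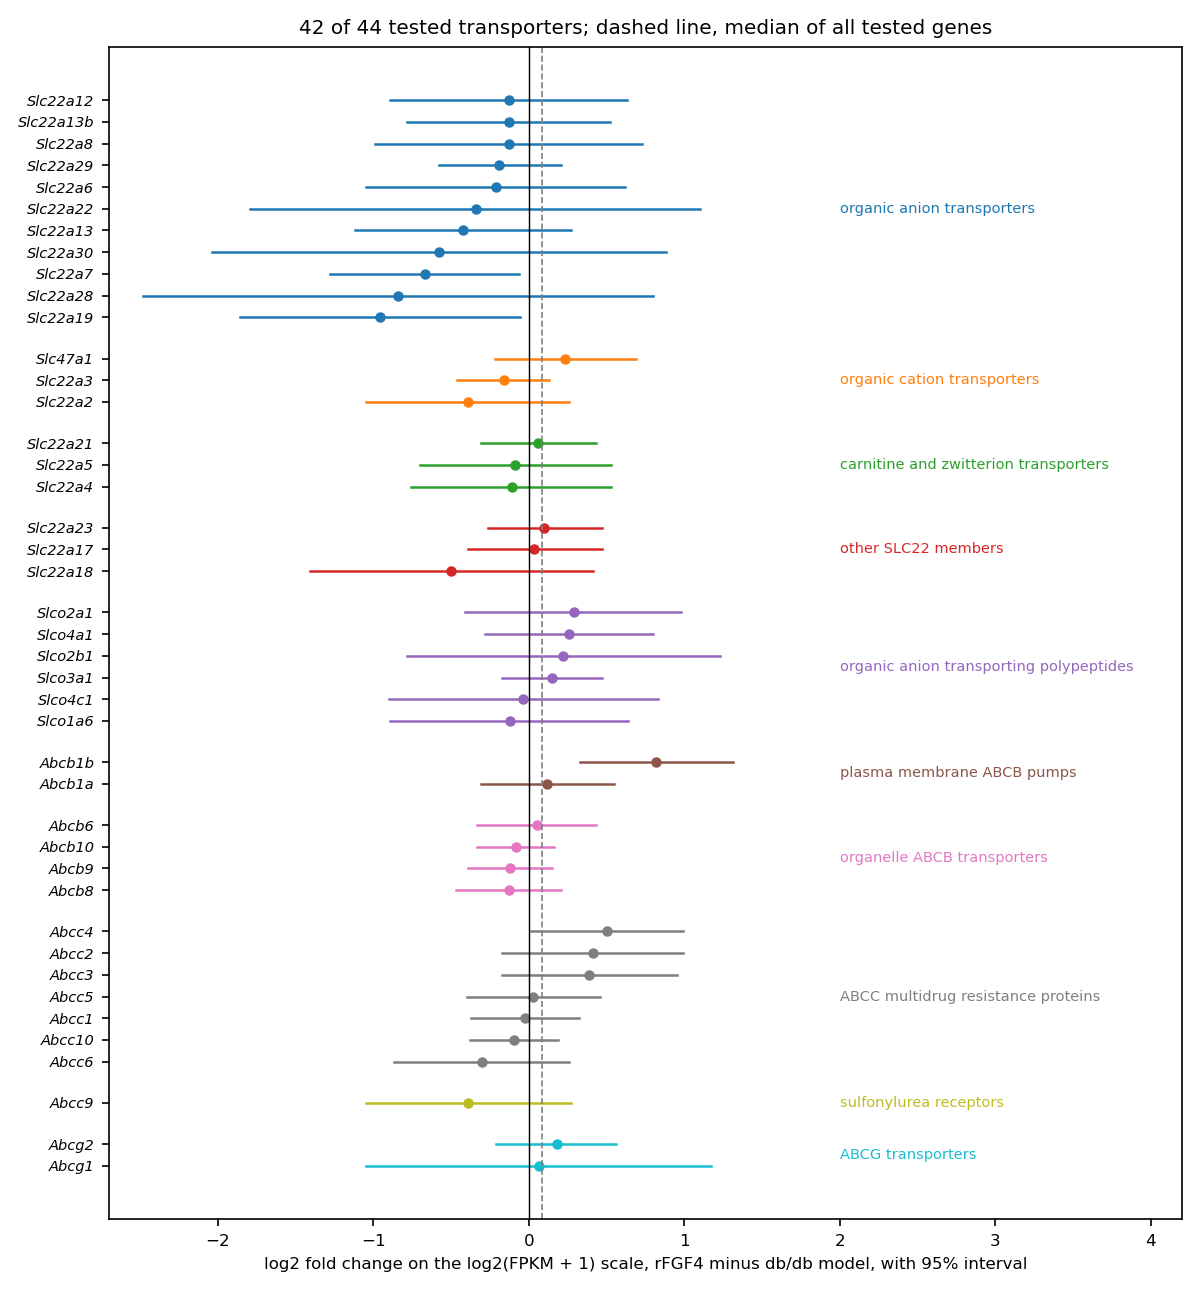
Log2 fold change of 42 of the 44 tested transporters (x axis, difference of mean log2(FPKM + 1), rFGF4 minus db/db model, 4 mice each) with 95% intervals from limma, by family (colours). All 11 organic anion transporters lie below 0, Abcb1b at 0.82 lies farthest to the right, and the dashed line marks the median of all genes, 0.086.

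The family spans a wide range of expression. Means over the 8 mice were 50 FPKM or more for 8 tested genes, 10 to 50 for 11, 1 to 10 for 23 and under 1 for 2. The 10 most abundant members held 75.8% to 84.9% of the summed FPKM of all members, and that sum ran from 822 in rFGF4 mouse 1 to 1730 in rFGF4 mouse 3. Slc22a12, Slc47a1, Slc22a8, Slc22a6 and Slc22a18 had means of 220, 160, 140, 136 and 128 FPKM. The ranges over the 8 mice overlapped between every neighbouring pair in this order. They were followed by Slc22a5 at 66.2, Slc22a2 at 63.8, Abcc2 at 38.0 and Abcg2 at 29.3 FPKM.

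**Figure D2:**
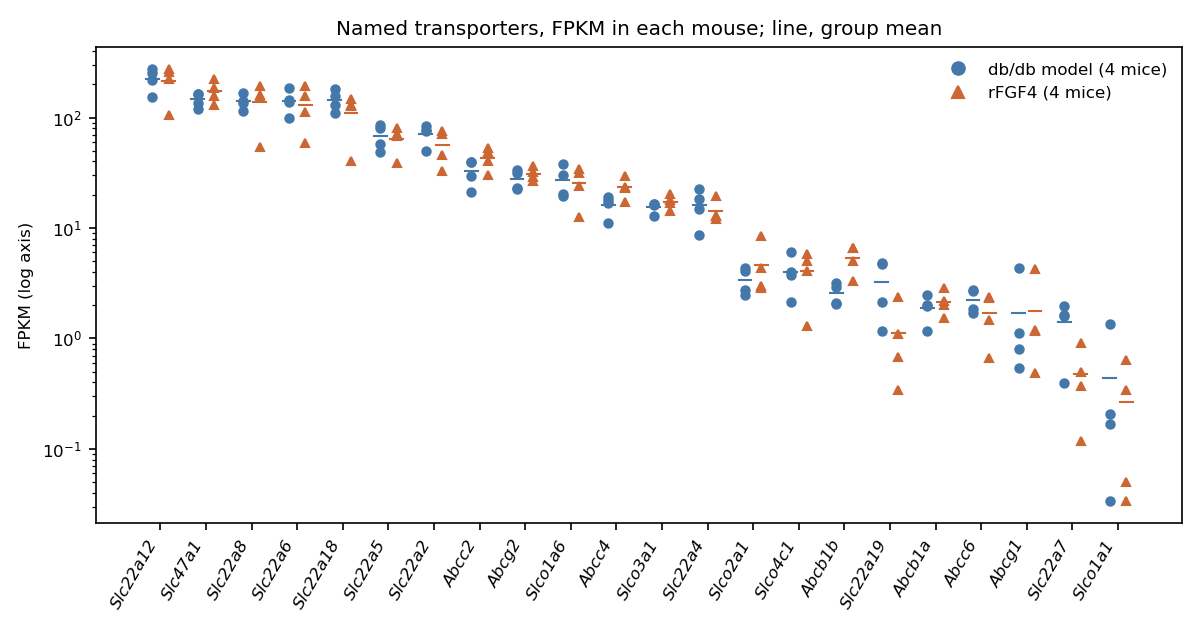
FPKM (log axis) of 22 named transporters in each mouse, in order of their mean; circles are db/db model mice, triangles rFGF4 mice, and short lines the group means. Most genes overlap between groups, the Abcb1b triangles at 3.31 to 6.56 FPKM lie above its circles at 2.06 to 3.16, and the lowest triangle of many abundant genes is rFGF4 mouse 1.

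Among the organic anion transporters, 14 genes in all, 11 were tested and 2 fell. Slc22a7 encodes OAT2, which carries cyclic nucleotides, nucleobases and drugs, and lies on chromosome 17 from 46432183 to 46438457 (minus strand, GRCm38). Its FPKM was 0.117, 0.501, 0.374 and 0.911 in rFGF4 mice 1, 2, 3 and 5 and 1.59, 1.63, 1.98 and 0.393 in db/db mice 2, 3, 4 and 5. db/db mice 2, 3 and 4 lay above every treated mouse, and db/db mouse 5 lay among the treated mice. Means were 0.476 ± 0.331 and 1.40 ± 0.693 (SD, n = 4 each), a log2 fold change of -0.67 (SE 0.27, limma p = 0.0342, exact permutation p = 0.0857). Without rFGF4 mouse 1 and db/db mouse 5 the groups were apart and the gene still passed the threshold, at -0.79. The call was not stable to leaving out 1 mouse. It was lost when rFGF4 mouse 1, 2 or 3 or db/db mouse 2, 3 or 4 was left out, with log2 fold changes of -0.69 to -0.55 and limma p of 0.0583 to 0.0894. Leaving out db/db mouse 5 gave -0.91 and leaving out rFGF4 mouse 5 gave -0.80, both past the threshold.

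Slc22a19 encodes Oat5, an organic anion exchanger of the luminal membrane in rodents, and lies on chromosome 19 from 7673061 to 7711310 (minus strand, GRCm38). Its FPKM was 0.342, 1.10, 0.680 and 2.38 in the rFGF4 mice and 4.81, 2.14, 4.74 and 1.18 in the db/db mice, in the order above. The highest values belonged to db/db mice 2 and 4, whereas db/db mice 3 and 5 were below rFGF4 mouse 5, so the groups overlapped. Means were 1.13 ± 0.894 and 3.22 ± 1.84 (SD, n = 4 each), a log2 fold change of -0.96 (SE 0.39, limma p = 0.0398, exact permutation p = 0.114). Without rFGF4 mouse 1 and db/db mouse 5 it was -1.05, past the threshold. The call was lost without rFGF4 mouse 1, 2 or 3 or db/db mouse 2 or 4, at -0.98 to -0.77 with limma p of 0.0659 to 0.103. With the mouse number as a block, both Slc22a7 (-0.42) and Slc22a19 (-0.58) lost the call (limma p of 0.265 each). With a pseudocount of 0.1 FPKM in place of 1, the log2 fold changes were -1.40 for Slc22a7 and -1.51 for Slc22a19. The adjusted p of both genes was 0.918, and 0.356 to 1 over all alternatives. Slc22a19 shared 0.985% of its 50-base stretches with another gene and Slc22a7 none, so reads of these genes were little exposed to confusion with paralogs.

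All 11 tested organic anion transporters were lower on average with rFGF4, with log2 fold changes of -0.96 to -0.13 and a median of -0.34, beside 0.086 over all genes. Both scalings left this count at 11. It was 7 of 11, with a median of -0.065, once rFGF4 mouse 1 was left out, and 8 of 11 with a median of -0.25 without that mouse and db/db mouse 5. Without db/db mouse 2 it was 10 of 11 with a median of -0.17, and without db/db mouse 4 it was 11 with a median of -0.16. With the mean of the proximal tubule markers as a covariate, the count was 9 of 11 and the median -0.13. In the 6 mice numbered 2, 3 and 5, which leave out rFGF4 mouse 1 and db/db mouse 4, the direction turned, with 7 of 11 higher, 4 lower and a median of 0.05. Their summed FPKM was 244 in rFGF4 mouse 1, 541, 730 and 672 in the other treated mice and 660, 523, 741 and 449 in the db/db mice. The treated mice other than mouse 1 thus lay within the range of the controls.

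The abundant anion transporters behaved in the same way. Slc22a6 encodes OAT1 and Slc22a8 encodes OAT3, the basolateral carriers that begin the secretion of many acidic drugs. Slc22a6 had an FPKM of 58.9, 113, 193 and 156 in the rFGF4 mice and 144, 137, 186 and 99.8 in the db/db mice. Treated mouse 1 was the lowest of the 8 and treated mouse 3 the highest. The log2 fold change of Slc22a6 was -0.21 (95% interval -1.05 to 0.62, exact permutation p = 0.686), and 0.12 without rFGF4 mouse 1. Slc22a8 had 53.9, 152, 191 and 161 FPKM in the rFGF4 mice and 135, 114, 168 and 141 in the db/db mice, again with treated mouse 1 lowest. Its log2 fold change was -0.13 (95% interval -0.99 to 0.73, exact permutation p = 0.943), and 0.27 without rFGF4 mouse 1. Slc22a12 encodes URAT1, the urate carrier of the luminal membrane, and had 105, 224, 273 and 258 FPKM in the rFGF4 mice and 254, 217, 277 and 153 in the db/db mice. Treated mouse 1 was once more the lowest and db/db mouse 5 the next. Its log2 fold change was -0.13 (95% interval -0.89 to 0.63, exact permutation p = 0.771), and 0.19 without rFGF4 mouse 1. These intervals span changes of more than the 1.5-fold limit in both directions.

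Rodents carry further anion transporters in a cluster on chromosome 19, several of them with no known substrate, and these included highly variable genes. Slc22a28 ranged 22.1-fold between mice, the widest of the tested members, and Slc22a30 ranged 13.6-fold, beside 16.9-fold for Slc22a7 and 14.1-fold for Slc22a19. Slc22a28 had 0.971, 6.70, 17.6 and 18.9 FPKM in the rFGF4 mice and 21.1, 10.1, 21.5 and 9.48 in the db/db mice. Slc22a30 had 1.08, 3.42, 9.08 and 13.1 FPKM in the rFGF4 mice and 12.4, 4.03, 14.6 and 5.21 in the db/db mice. In both genes rFGF4 mouse 1 was lowest and db/db mouse 4 highest, and the groups overlapped. Log2 fold changes were -0.84 (exact permutation p = 0.4) and -0.58 (exact permutation p = 0.429), and -0.13 and -0.070 without rFGF4 mouse 1. Slc22a22, the mouse prostaglandin transporter OAT-PG, lies outside this cluster, on chromosome 15. It ran from 3.44 FPKM in rFGF4 mouse 1 to 25.3 in rFGF4 mouse 5. Its log2 fold change of -0.34 became 0.17 without mouse 1. These 3 genes were chosen for description after their values were seen.

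Values of Slc22a28 and Slc22a30 may not be independent. Of the 50-base stretches, 53.9% of those of Slc22a28 and 34.2% of those of Slc22a30 occur in another gene, mostly in each other. The counting could divide such reads between them, which was not tested. Their promoters are also alike and are shown as RefSeq windows of 300 bases on GRCm38.p6. Each window holds 250 bases before and 50 after a transcript start. Most of it thus lies outside the transcript and does not show the shared stretches. Both are written along the minus strand, which is the strand of the genes. Shifted by 6 bases, they overlap over 294 bases, 98% identical, and capitals mark the 6 bases that differ.
Slc22a28, chr19:8131933-8132232: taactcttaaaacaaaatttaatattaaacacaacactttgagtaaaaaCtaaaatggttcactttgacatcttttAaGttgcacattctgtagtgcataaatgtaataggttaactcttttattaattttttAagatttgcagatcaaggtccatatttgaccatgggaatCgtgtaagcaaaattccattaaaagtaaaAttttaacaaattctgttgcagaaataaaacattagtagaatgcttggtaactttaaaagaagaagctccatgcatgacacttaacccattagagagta
Slc22a30, chr19:8405056-8405355: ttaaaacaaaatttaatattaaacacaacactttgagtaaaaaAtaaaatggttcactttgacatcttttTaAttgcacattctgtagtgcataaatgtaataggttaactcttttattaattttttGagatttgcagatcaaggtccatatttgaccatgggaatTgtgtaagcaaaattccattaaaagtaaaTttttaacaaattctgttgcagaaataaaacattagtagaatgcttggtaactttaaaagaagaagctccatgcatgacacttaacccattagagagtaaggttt
Slc22a13, the nicotinate and urate exchanger OAT10, shared 36% of its stretches with its copy Slc22a13b, which shared 49.9%, and their log2 fold changes were -0.42 and -0.13. Slc22a29 was at -0.19. None of the 3 passed the threshold, and they are named outside the rule for named genes.

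Organic cation transporters move metformin, creatinine, monoamines and many basic drugs, and none of those tested passed the threshold. Slc22a2, which encodes OCT2, had 32.7, 46.0, 70.8 and 74.9 FPKM in the rFGF4 mice and 84.3, 75.4, 76.6 and 49.9 in the db/db mice. Slc47a1 encodes MATE1, the exchanger that passes cations into urine, and had 130, 185, 224 and 156 FPKM in the rFGF4 mice and 164, 120, 164 and 135 in the db/db mice. Treated mouse 1 was lowest for Slc22a2 but not for Slc47a1, where db/db mouse 3 was lowest, and the groups overlapped in both. Their log2 fold changes were -0.39 (95% interval -1.05 to 0.26) and 0.23 (-0.22 to 0.69), and -0.17 and 0.36 without rFGF4 mouse 1. Without rFGF4 mouse 1 and db/db mouse 5 they were -0.33 and 0.33, where the groups were apart for Slc22a2 and neither passed the threshold. Slc22a3, which encodes OCT3, stayed under 1 FPKM, and Slc47a2 was below the limit for testing.

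The carnitine carriers differed little on average, but the intervals of Slc22a5 and Slc22a4 reach past a fall of 1.5-fold. Slc22a5, which encodes OCTN2, the carrier that reclaims carnitine, had 38.9, 67.7, 79.9 and 71.6 FPKM in the rFGF4 mice and 58.1, 79.6, 85.7 and 48.4 in the db/db mice, a log2 fold change of -0.086 (95% interval -0.70 to 0.53). Its sign turned with nuclear-sum scaling, to 0.013. Slc22a4, which encodes OCTN1, the carrier of ergothioneine, had 12.9, 12.0, 12.9 and 19.5 FPKM in the rFGF4 mice and 22.6, 8.62, 18.4 and 15 in the db/db mice, a log2 fold change of -0.11 (95% interval -0.76 to 0.53). Both ranges lay across each other, with the lowest and highest Slc22a4 value in db/db mice. Slc22a5 shared 26.3% of its stretches, mostly with Slc22a21, whose log2 fold change was 0.058. Slc22a18, a transporter-like gene of an imprinted region, had 40.8, 130, 127 and 146 FPKM in the rFGF4 mice and 181, 109, 157 and 130 in the db/db mice. Treated mouse 1 stood far below the other 7, and the log2 fold change of -0.50 (95% interval -1.41 to 0.41) became -0.077 without it and -0.12 without it and db/db mouse 5.

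Organic anion transporting polypeptides, the Slco family, carry bile acids, steroid conjugates, thyroid hormones and prostaglandins, and 6 of 15 were tested with none past the threshold. Slco1a6 had 12.7, 23.8, 34.0 and 31.6 FPKM in the rFGF4 mice and 30.2, 19.6, 38.0 and 20.5 in the db/db mice. Its log2 fold change was -0.12 (95% interval -0.89 to 0.64), but 0.17 without rFGF4 mouse 1 and 0.055 without db/db mouse 4. Slco3a1 was steadier, with 14.3, 16.7, 20.1 and 17.9 FPKM in the rFGF4 mice and 16.4, 16.0, 16.5 and 12.8 in the db/db mice, and a log2 fold change of 0.15 (95% interval -0.17 to 0.47). Slco4c1, a basolateral carrier of the proximal tubule, had 1.29, 5.04, 4.11 and 5.76 FPKM in the rFGF4 mice and 6.11, 4.0, 3.73 and 2.14 in the db/db mice. Treated mouse 1 was lowest for Slco1a6 and Slco4c1, and the Slco4c1 log2 fold change was -0.036 with all mice (0.035 with nuclear-sum scaling) and 0.31 without that mouse. Slco2a1, the prostaglandin transporter, ran the other way, with 8.39, 4.38, 3.0 and 2.86 FPKM in the rFGF4 mice and 2.73, 4.09, 2.45 and 4.38 in the db/db mice. Treated mouse 1 was the highest, and the log2 fold change of 0.29 (95% interval -0.41 to 0.98) became 0.0096 without it. Slco2b1, named after its values were seen, was highest in db/db mouse 5 and rFGF4 mouse 1, at 8.70 and 6.76 FPKM, against 1.5 to 3.92 in the other 6 mice. Slco1a1, a luminal carrier of male kidney, was too low to test and ran from 0.0335 to 1.35 FPKM.

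The clearest difference was that of Abcb1b. Mice have 2 P-glycoprotein genes, Abcb1a and Abcb1b, side by side on chromosome 5, and the protein pumps lipophilic drugs out of cells and into urine. Abcb1b (8798147 to 8866315, plus strand, GRCm38) had 6.56, 5.04, 6.54 and 3.31 FPKM in the rFGF4 mice and 3.16, 2.06, 2.93 and 2.08 in the db/db mice. Every treated mouse was above every control, with rFGF4 mouse 5 just above db/db mouse 2. Means were 5.36 ± 1.54 and 2.56 ± 0.573 (SD, n = 4 each), a log2 fold change of 0.82 (SE 0.21, 95% interval 0.33 to 1.31, limma p = 0.00471, adjusted p = 0.918, exact permutation p = 0.0286). This exact p is the smallest that 4 mice against 4 allow. Leaving out any single mouse gave log2 fold changes of 0.72 to 0.99 (limma p of 0.000679 to 0.0155), past the threshold each time. Without rFGF4 mouse 1 and db/db mouse 5 it was 0.66, again past the threshold.

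Abcb1a (8660077 to 8748575, plus strand) had 1.54, 2.18, 2.88 and 2.0 FPKM in the rFGF4 mice and 2.45, 1.18, 2.01 and 1.97 in the db/db mice. Its groups overlapped throughout, and the log2 fold change was 0.12 (95% interval -0.31 to 0.55, exact permutation p = 0.543). The ratio of Abcb1b to Abcb1a FPKM was 4.27, 2.31, 2.27 and 1.66 in the rFGF4 mice and 1.29, 1.74, 1.46 and 1.06 in the db/db mice. Treated mouse 5 was below db/db mouse 3, so these ratios overlapped. They are a description, chosen after the values were seen. The summed FPKM of both genes averaged 7.51 ± 1.73 with rFGF4 and 4.46 ± 1.04 in the db/db mice (SD, n = 4 each). The genes shared 11.6% and 17.6% of their 50-base stretches, mostly with each other, so a part of the reads could be divided between them. Abcb1b also overlaps Gm5106 on the other strand, and the sources used here do not say whether strand was counted.

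The Abcb1b promoter is shown because this is the member with the largest separation between groups. The 300 bases, from RefSeq on GRCm38.p6, are written along the plus strand, the strand of the gene, with the start 250 bases in. Capitals mark the CCAAT box, CCAAT or its reverse complement ATTGG, at 87 and 66 bases before the start. A GC box, GGGCGG, lies 48 bases before the start in lower case.
Abcb1b, chr5:8797897-8798196: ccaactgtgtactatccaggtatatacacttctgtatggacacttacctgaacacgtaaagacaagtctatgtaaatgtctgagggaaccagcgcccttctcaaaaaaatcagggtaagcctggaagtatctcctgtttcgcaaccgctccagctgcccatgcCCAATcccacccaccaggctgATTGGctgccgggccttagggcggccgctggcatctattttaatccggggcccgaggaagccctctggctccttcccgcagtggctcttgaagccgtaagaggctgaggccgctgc
The CCAAT box was found in 12 of the 32 tested transporters with a window (37.5%) and in 41.1% of all 27025 genes with windows of the same length, and the GC box in 14 (43.8%) and 38.2%, a gene being counted where any of its windows matched. TATAAA was found in 5 (15.6%) and in 15.7% of all genes. The core motif of HNF4, a transcription factor of the proximal tubule, CAAAGTCCA, was found in none of the 32 and in 0.555% of all genes. Both strands were searched. Such matches describe the letters and do not show binding. Hnf4a, the gene of that factor, had a log2 fold change of 0.084 with a limma p of 0.72. Slc22a19, which fell, has 1 CCAAT box in capitals, on the minus strand, and no RefSeq window was given for Slc22a7.
Slc22a19, chr19:7711261-7711560: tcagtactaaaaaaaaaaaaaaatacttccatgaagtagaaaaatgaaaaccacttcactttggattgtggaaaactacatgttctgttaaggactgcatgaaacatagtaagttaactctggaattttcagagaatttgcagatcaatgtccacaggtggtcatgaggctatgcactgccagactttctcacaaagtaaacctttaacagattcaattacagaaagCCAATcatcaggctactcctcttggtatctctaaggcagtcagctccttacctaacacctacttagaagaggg

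**Figure D3:**
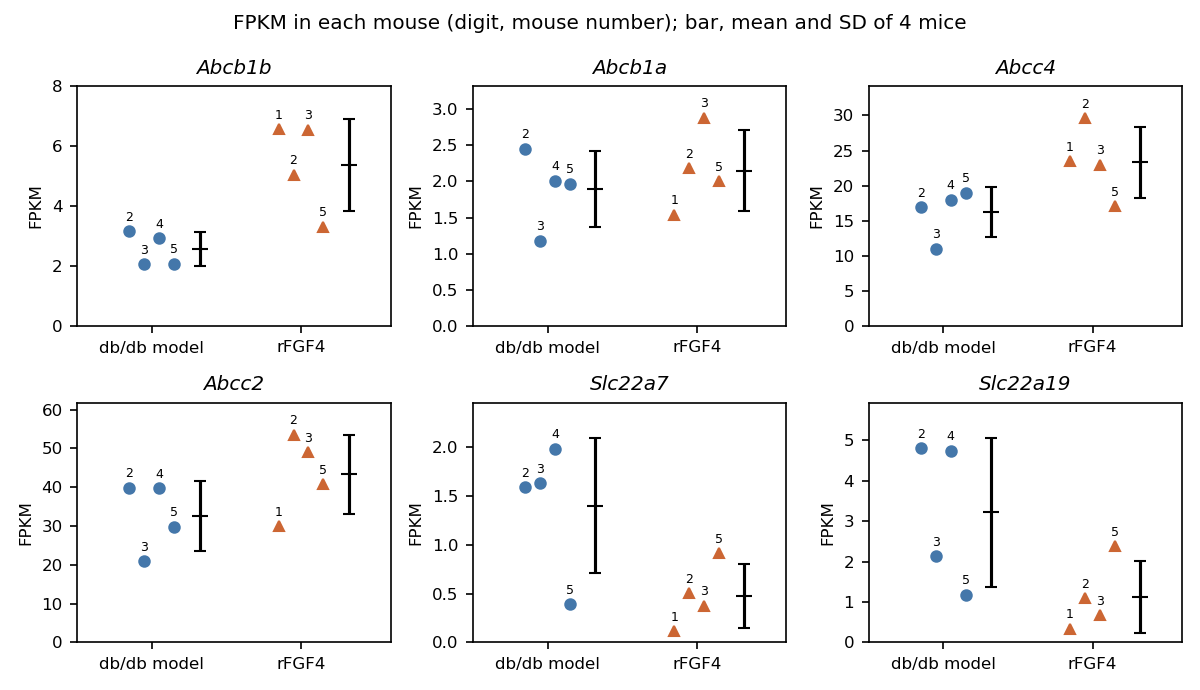
FPKM (y axis, from 0) of 6 transporters in each mouse, with circles for db/db model mice, triangles for rFGF4 mice, mouse numbers beside the points, and bars for the mean and SD of 4 mice. Abcb1b is the gene whose groups do not overlap. For Slc22a7 and Slc22a19 db/db mouse 5, at 0.393 and 1.18 FPKM, lies among the treated mice. For Slc22a19 so does db/db mouse 3, at 2.14 FPKM.

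The ABCC family holds the multidrug resistance proteins, of which 7 of 8 were tested. Abcc4 encodes MRP4, a luminal pump for urate, cyclic nucleotides and acidic drugs, and had 23.5, 29.6, 23.0 and 17.1 FPKM in the rFGF4 mice and 16.9, 11.0, 18 and 19.0 in the db/db mice. Treated mice 1, 2 and 3 were above all controls, and treated mouse 5 was among them. The log2 fold change was 0.50 (SE 0.21, limma p = 0.0459, exact permutation p = 0.0857), short of the fold limit. Without rFGF4 mouse 5 it was 0.63 and without db/db mouse 5 it was 0.58 (limma p 0.0176 and 0.0383), whereas the p was 0.0526 to 0.124 without any other mouse. Nuclear-sum scaling put Abcc4 past the threshold, at 0.59 (limma p of 0.0275), and median-ratio scaling gave 0.37 with a limma p of 0.0991. Without rFGF4 mouse 1 and db/db mouse 5 it was 0.57 (limma p of 0.0668). Abcc2 encodes MRP2, a luminal pump for glutathione conjugates, and had 30.0, 53.5, 49.0 and 40.8 FPKM in the rFGF4 mice and 39.9, 21, 39.8 and 29.8 in the db/db mice. Treated mice 2, 3 and 5 were above all controls, and treated mouse 1 was among the lowest. Its log2 fold change was 0.41 (95% interval -0.17 to 0.99, exact permutation p = 0.143), and 0.57 without rFGF4 mouse 1 (limma p of 0.0462), short of the fold limit of 0.585 on the log2 scale. It was past the threshold, at 0.68 (limma p of 0.0345), in the fit with the mouse number as a block, which uses the 6 mice numbered 2, 3 and 5. Without rFGF4 mouse 1 and db/db mouse 5 it was 0.54 (limma p of 0.0873), with the groups apart. Abcc6, the gene mutated in the mineralization disease pseudoxanthoma elasticum, had 0.665, 1.47, 2.33 and 2.36 FPKM in the rFGF4 mice and 2.76, 1.85, 2.69 and 1.70 in the db/db mice. Its log2 fold change was -0.30 (95% interval -0.87 to 0.26), and -0.09 without rFGF4 mouse 1. The remaining tested members, Abcc1, Abcc3, Abcc5 and Abcc10, lay between -0.094 and 0.39.

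Abcg2 encodes BCRP, a luminal pump for urate and sulfate conjugates, and had 26.7, 32, 36.1 and 29.2 FPKM in the rFGF4 mice and 31.4, 22.5, 33.6 and 22.9 in the db/db mice. The groups overlapped, with a log2 fold change of 0.18 (95% interval -0.21 to 0.56). Abcg1, which moves cholesterol out of macrophages and other cells, had 4.29, 1.19, 0.489 and 1.17 FPKM in the rFGF4 mice and 0.798, 1.13, 0.537 and 4.33 in the db/db mice. Its highest values were in rFGF4 mouse 1 and db/db mouse 5, the mice with the highest macrophage markers, and its log2 fold change of 0.064 (-0.014 with median-ratio scaling) was -0.30 without the first and 0.45 without the second. Organelle transporters were among the steadiest members. Abcb10, Abcb8, Abcb6 and Abcb9, which serve mitochondria or, for Abcb9, lysosomes, ranged between 1.29-fold and 1.56-fold over the 8 mice, with log2 fold changes of -0.13 to 0.050. Abcb6 shared 50% of its stretches with an overlapping gene model on the same strand. Abcc9, a sulfonylurea receptor that forms potassium channels in smooth muscle, had a log2 fold change of -0.39 (95% interval -1.05 to 0.27). It was -0.14 without db/db mouse 2 and -0.60 without db/db mouse 3.

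A common feature of the members was their position in rFGF4 mouse 1. This library was the lowest of the 8 for 20 of the 44 tested transporters (45.5%) and for 10.9% of all genes, and the highest for 6 transporters (13.6%) and for 48.1% of all genes. The median deviation of the members from their own mean was -0.28 on the log2 scale in rFGF4 mouse 1, 0.061, 0.10 and 0.091 in the other treated mice, and 0.15, -0.065, 0.17 and -0.14 in the db/db mice. The proximal tubule markers, as a mean on the log2(FPKM + 1) scale, were likewise lowest in rFGF4 mouse 1 (5.59) and next lowest in db/db mice 3 and 5 (6.83 and 6.93). Their summed FPKM did not follow the members in every mouse, being second lowest in rFGF4 mouse 2. It was 1710 in rFGF4 mouse 1, 4620, 8150 and 8120 in the other treated mice and 10100, 5000, 9090 and 4830 in the db/db mice. Of the 12 markers 9 were lower on average with rFGF4 and 1, the glucose carrier Slc5a1, passed the threshold, at 0.88. The mean of the markers did not separate the groups (7.04 and 7.30, exact permutation p = 0.8). When it was added to the fit as a covariate, after the data were seen, Abcb1b, Slc22a7 and Slc22a19 still passed the threshold, at 0.80, -0.59 and -0.82. The unadjusted p then fell under 0.05 also for other members, among them Abcc2 (0.51), Slc47a1 (0.31) and Slc22a28 (-0.47), with an adjusted p of 0.646 for each. With the covariate 15.9% of the transporters and 7.63% of all genes had an unadjusted p under 0.05, beside 9.09% and 4.62% without it, so the gain was not that of the transporters alone. Abcc4 had a limma p of 0.0561 in that fit, at 0.50.

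**Figure D4:**
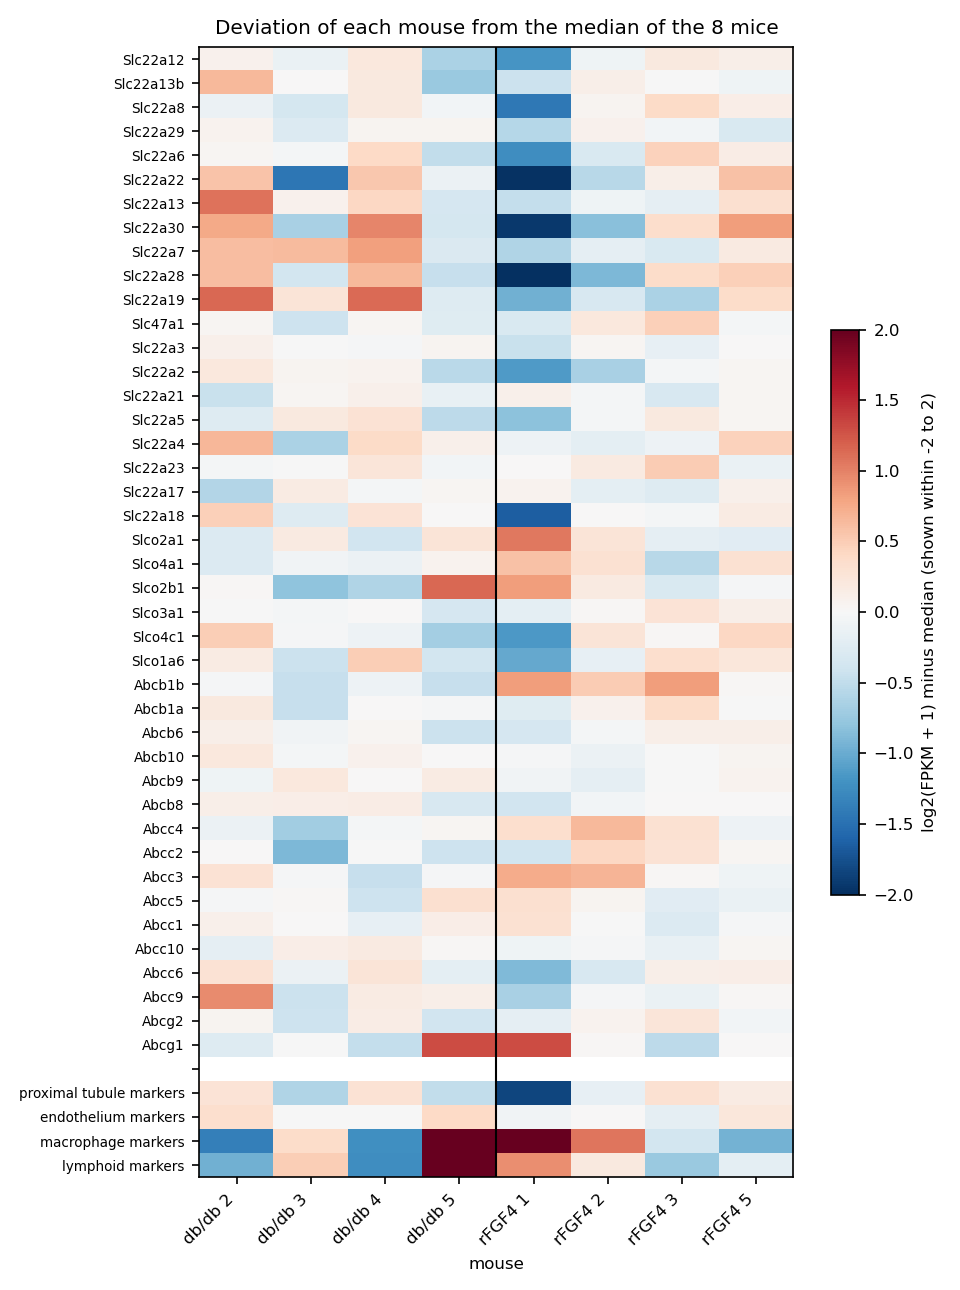
Deviation of each mouse (x axis) from the median of the 8 mice on the log2(FPKM + 1) scale (colour, shown within -2 to 2) for 42 of the 44 tested transporters (rows, by family) and 4 marker lists. The column of rFGF4 mouse 1 is blue for most SLC22 rows and for the proximal tubule markers, and dark red for the macrophage markers, as is the column of db/db mouse 5.

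Genes that act with these transporters were examined as lists. Of 16 regulators, all tested, 13 were higher on average (81.2%, beside 67.1% of all genes) and 1 passed the threshold. That gene was Ppara, the fatty acid receptor of the nucleus, with 3.27, 7.86, 15.6 and 6.88 FPKM in the rFGF4 mice and 3.26, 0.991, 4.63 and 2.19 in the db/db mice. Treated mice 2, 3 and 5 were above all controls, and the log2 fold change was 1.26 (SE 0.45, limma p of 0.022, adjusted p = 0.918). It was 0.93 without rFGF4 mouse 3 (limma p of 0.0534), and the p was 0.0604 without db/db mouse 3. Nfe2l2, which encodes the oxidative stress factor NRF2, an activator of several ABCC genes, was at 0.49 (limma p of 0.0373), with p of 0.055 to 0.101 when any mouse other than rFGF4 mouse 5 or db/db mouse 5 was left out. Nr1i2, Nr1i3 and Ahr, the xenobiotic sensors, were at 0.21, 0.23 and 0.11, none past the threshold. None of 5 scaffold genes that hold transporters at the luminal membrane (-0.12 to 0.30), of 5 carriers that supply the driving ions (-0.057 to 0.52), or of 15 tested carriers of urate, nucleosides, peptides and bile acids (-0.43 to 0.27) passed the threshold. In the last list the urate carrier Slc2a9 was at -0.17.

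The 25 members below the limit for testing included 4 listed at the floor of the table in all 8 libraries, Slc22a16, Slc22a20, Slco6c1 and Slco6d1. Another 21 were above it in at least 1 library, and 7 of these reached 0.5 FPKM in at least 1. Liver transporters were among them, such as Slco1b2 at no more than 0.0436 FPKM and Abcb11, the bile salt pump, at no more than 0.0178. Abcg3, of unknown function, was highest in db/db mouse 5 and rFGF4 mouse 1, at 0.823 and 0.54 FPKM, against at most 0.136 in the others, the order also seen for Abcg1, Slco2b1 and the macrophage markers. Slco1a5 likewise had 0.495 and 0.532 FPKM in these mice and no more than 0.0383 elsewhere. The part of the macrophage and lymphoid markers in these values was not tested.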

How the data were processed

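Poly(A) RNA of 8 kidneys was sequenced as paired-end libraries. The authors assembled transcripts with StringTie and combined them with gffcompare, per the methods. The submitters' processing notes also list HISAT2 2.0, StringTie 1.3.0, Bowtie 0.12.2 and the build mm8, with no role or order. Values are deposited as FPKM per gene by the authors, with 0.0001 in place of 0 (55.1% to 59% of the genes of a library). A fold change, its log2 and a p-value from the authors' edgeR comparison, as deposited with a q-value, were not used. The file holds no counts, so edgeR was not run, depth is unknown and no counting interval was calculated.

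The 15150 genes with 0.5 FPKM or more in 4 libraries were compared on the log2(FPKM + 1) scale with limma 3.58.1 in R 4.3.3 (trended prior variance, two-sided, Benjamini-Hochberg adjustment over all tested genes). Fold changes on this scale understate the change of low genes. Single genes were also compared with a two-sided exact permutation test, whose smallest p for 4 against 4 is 0.0286. The procedure was tested on simulated data. The members, gene lists and tests were chosen with earlier results of these data known, so no pattern here is independent support for another.

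Named genes are tested members with an unadjusted p under 0.05, those whose groups do not overlap, the 10 with the highest mean FPKM and 21 textbook renal transporters, 23 in all, and results of a few genes and motifs are not reported here. Where another gene is singled out, its values were known when it was chosen. Positions, exon overlaps and shared 50-base stretches came from GENCODE M21 on GRCm38, which holds 55141 of the identifiers (99.5%) and all 69 members. The identifiers match this release although the notes list mm8, and no coordinates from the authors were used. Promoter windows came from RefSeq for 54 members. Replicates were numbered by the labels. Numbers 2, 3 and 5 occur in both groups, and nothing describes them as pairs. Plots used Python 3.11.15 and matplotlib 3.10.9.

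Alternatives were another pseudocount (0.1), no filter, a mean of at least 1 FPKM, scaling to a common median ratio or to a common sum of nuclear genes, array weights, a fold change of 2, each mouse left out and a replicate block. A proximal tubule covariate and leaving out rFGF4 mouse 1 and db/db mouse 5 together were chosen after seeing the data. No alternative that requires counts was run.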

Additional observations from a re-analysis of the deposited data

Results flagged for a closer look

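In 4 of 48 groups of 4 mice, 1 mouse lay apart from the other 3 by more than Dixon's 95% limit, which is set on the gap to the nearest mouse as a share of the group's range. Chance flags about 1 in 20 groups, or 2.4 of 48. The genes are not independent of each other. The median deviation of the 44 tested transporters was lowest in rFGF4 mouse 1, with a gap of 0.902 of the range of the treated mice. Slc22a18 was also lowest in that mouse, at 40.8 FPKM, with a gap of 0.888. Slc22a4 was highest in rFGF4 mouse 5, at 19.5 FPKM, with a gap of 0.85. Slco3a1 was lowest in db/db mouse 5, at 12.8 FPKM, with a gap of 0.872.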

How the results depend on the processing

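No transporter had an adjusted p under 0.05 in any alternative. The 3 transporters past the study's threshold were 1 to 4 with each mouse left out, 2 with the replicate block and 0 at a fold change of 2. With a pseudocount of 0.1 FPKM their log2 fold changes were 1.01 for Abcb1b, -1.40 for Slc22a7 and -1.51 for Slc22a19, all past a fold change of 2. The 2 under the block were Abcb1b and Abcc2 (0.68), while Slc22a7 (-0.42, limma p of 0.265) and Slc22a19 (-0.58, limma p of 0.265) lost the call. Over all genes the share past the threshold was 1.52%, 1.23% to 3.8% with each mouse left out and 1.74% with the block, the highest, like the 4 transporters, without rFGF4 mouse 5. The 4 at an unadjusted p under 0.05 were 1 to 4 with each mouse left out, 2 with the replicate block and 7 with the proximal tubule covariate. Of all genes 4.62% had such a p, 2.84% to 9.44% with each mouse left out, 2.61% with the block and 7.63% with the covariate. The 1 with groups apart became 1 to 4 with each mouse left out, 2 with nuclear-sum scaling and 6 without both rFGF4 mouse 1 and db/db mouse 5, where 3 mice face 3. Over all genes the share with groups apart was 3.33%, 4.44% to 11% with each mouse left out, 5.43% with nuclear-sum scaling and 13.3% without both mice, beside 2.27%, 2.27% to 9.09%, 4.55% and 13.6% of the transporters, so the rise in the transporters was also that of all genes. The median log2 fold change of the tested members moved by less than 1 SD between mice (0.17) in every alternative, but its sign was not stable. It was -0.084 with all mice, -0.19 with median-ratio scaling, 0.0089 with nuclear-sum scaling, 0.0037 without rFGF4 mouse 1, 0.025 without both mice and 0.063 with the block. Abcc4 passed the threshold with nuclear-sum scaling (0.59) and had a limma p of 0.114 with the block. A mean of at least 1 FPKM removed Slc22a7. Of 373 values of the 22 named tested members under alternatives, 318 kept their direction and their called or uncalled state. Of the rest, 13 lost the call, 3 gained it and 39 turned their sign, in 10 genes. Most of the 22 had no call to lose, and the 13 losses were all in Slc22a7 and Slc22a19. Abcb1b kept its call in all of its values, though on the log2(FPKM + 1) scale it lies under a fold change of 2.

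The replicate block used the 6 mice with numbers 2, 3 and 5 and so leaves out rFGF4 mouse 1 and db/db mouse 4. Deviations of same-numbered mice correlated at -0.229, -0.155 and -0.393, within the range of the other pairs, -0.562 to 0.567. These values cannot show whether such mice shared more than a number. Under the block the log2 fold change turned to 0.30 for Slc22a12, 0.26 for Slc22a6 and Slc22a5, 0.36 for Slc22a8, 0.01 for Slc22a4, 0.34 for Slco1a6, 0.30 for Slco4c1, -0.10 for Slco2a1 and -0.51 for Abcg1. The same 6 mice without the block gave the same counts of 2, and in them 6 transporters (13.6%) and 9.91% of all genes had groups apart.

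Signs also turned with the covariate, to 0.036 for Slc22a12, 0.017 for Slc22a5, 0.052 for Slc22a8, 0.049 for Slco1a6, 0.13 for Slco4c1 and -0.15 for Abcg1. Without both rFGF4 mouse 1 and db/db mouse 5 they turned to 0.015 for Slc22a12, 0.28 for Slc22a8, 0.057 for Slco1a6 and 0.10 for Slco4c1. Nuclear-sum scaling gave 0.013 for Slc22a5 and 0.035 for Slco4c1, array weights 0.11 for Slc22a8 and 0.058 for Slco4c1, and median-ratio scaling -0.014 for Abcg1. With each mouse left out the range was -0.011 to 0.22 for Abcb1a, -0.30 to 0.45 for Abcg1, -0.30 to 0.19 for Slc22a12, -0.37 to 0.065 for Slc22a4, -0.23 to 0.14 for Slc22a5, -0.44 to 0.12 for Slc22a6, -0.33 to 0.27 for Slc22a8, -0.28 to 0.17 for Slco1a6 and -0.24 to 0.31 for Slco4c1. The causes were not tested.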
